A study of Mus musculus with 22 samples.

Results

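The genes described here are 10 tumor suppressors whose promoters are known to gain methylation in human breast cancer: Cdkn2a, Cdkn2b, Rassf1, Brca1, Ccnd2, Mgmt, Hic1, Dapk1, Timp3 and Gstp1. They were chosen by name, with earlier results of these data known. Their CpG positions had to be covered in all 22 samples. The positions also had to lie in the gene body or within 2 kb of a curated RefSeq transcription start site (TSS) on mm10. This gave 914 of the 1140639 positions shared by all samples, of which 667 lay in the promoters, meaning within 2 kb of a TSS. All 10 genes had at least 3 promoter positions, and so did 16407 of 26182 curated genes.

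DNA methylation was measured by enhanced reduced representation bisulphite sequencing (ERRBS), which enriches CpG-rich DNA and scores each covered cytosine by the percent of reads in which it was methylated. The cases were F1 females of strain PyMT, heterozygous for the MMTV-driven polyoma middle T transgene on an FVB background, and the controls were age-matched homozygous FVB females without it. Bulk mammary tissue was taken at week 6 (hyperplasia in PyMT, n = 2), week 8 (adenoma/MIN, n = 3), week 10 (early carcinoma, n = 3) and week 12 (late carcinoma, n = 2), and from 3 FVB mice at each week. The transgene is driven by the MMTV promoter, which is active mainly in mammary epithelium, and the label for disease state reads carcinoma for all PyMT samples, hyperplasia included. Each sample covered 1314077 to 1435757 positions at a mean of 60.2 to 79.2 reads. The mean coverage of the promoters of the 10 genes ranged from 49.1 reads for Gstp1 to 89.6 reads for Cdkn2a. In bulk tissue a change in the share of cells that carry a methylated allele and a change of cell types cannot be told apart.

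CpG islands at promoters are normally unmethylated. When such an island becomes densely methylated in a tumor, the gene is often silenced, so promoter methylation is counted as a way of losing a tumor suppressor beside mutation and deletion. The 10 genes act in different ways. Cdkn2a and Cdkn2b encode inhibitors of the cell cycle, Ccnd2 encodes a D-type cyclin, Rassf1 encodes a Ras-association scaffold of the Hippo pathway, and Brca1 and Mgmt serve DNA repair. Hic1 encodes a transcriptional repressor, Dapk1 a death-associated kinase, Timp3 an inhibitor of metalloproteinases and Gstp1 a glutathione transferase.

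Mean promoter methylation differed between PyMT and FVB samples in 5 of the 10 genes, averaged over the 4 weeks (limma across all genes, adjusted p under 0.05). It was higher in PyMT in 4 of them, Hic1, Mgmt, Timp3 and Ccnd2, where 17.0% of all promoters tested were called higher. The Mgmt call was lost with the replicate block (limma adjusted p = 0.13) and in 4 of 6 runs without a replicate. Each such run left out all mice of a strain that shared a replicate number, at every week. Promoter methylation was lower in PyMT in 1 member, Rassf1, where 17.0% of all promoters were called lower, and this value rested on 1 cytosine described further on. Cdkn2a, Cdkn2b, Brca1, Dapk1 and Gstp1 were not called, and their promoter means in either strain lay between 0.175% and 3.40%. The median difference over the 10 genes was 0.058 points (percentage points of methylation), beside -0.0082 points over all promoters tested. The sizes were unequal: 11.6 points for Hic1, 2.46 for Mgmt, 1.87 for Timp3 and 0.855 for Ccnd2. Hic1 was the member in which all 10 PyMT samples lay above all 12 FVB samples, a separation seen in 4.51% of all promoters, and Rassf1 was the member in which all lay below, as in 5.35% of all promoters.

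**Figure D1:**
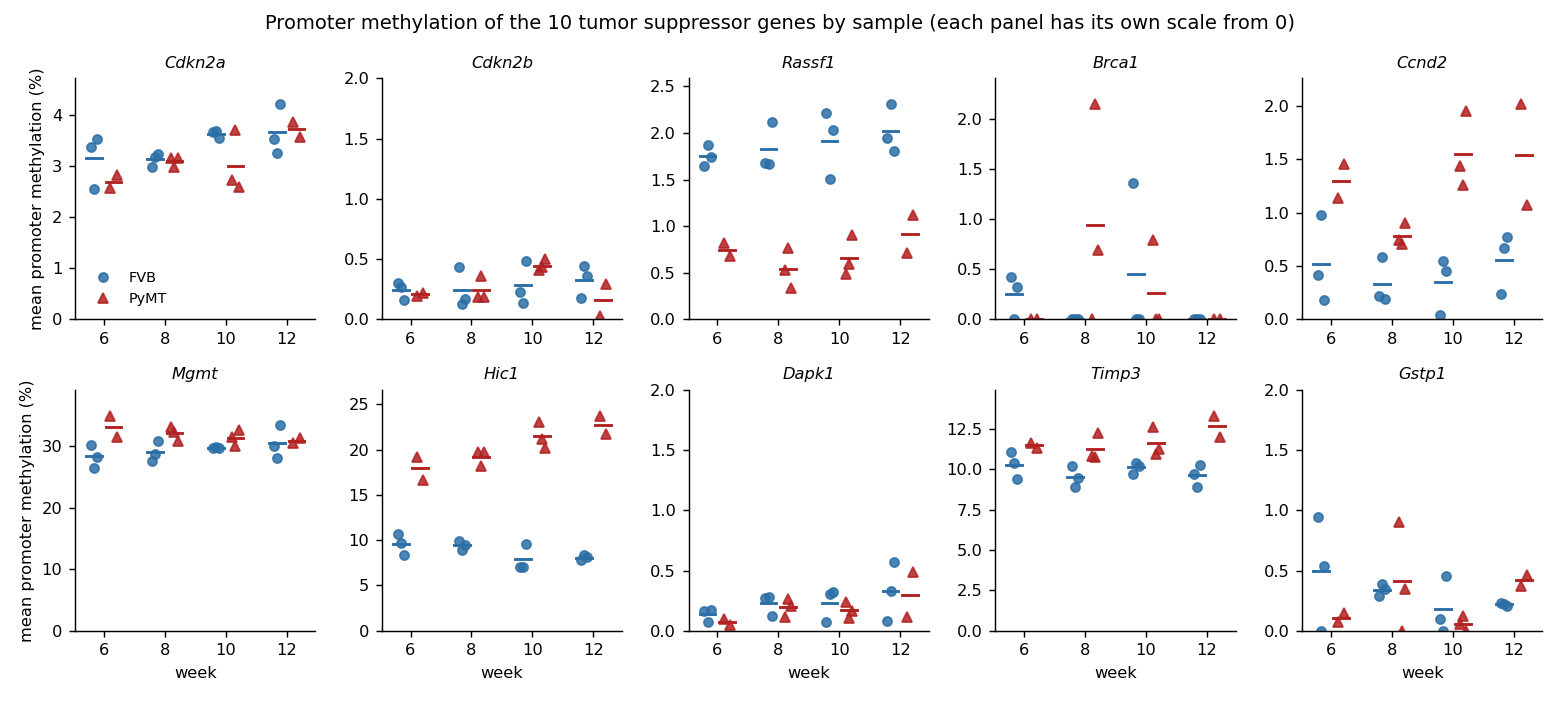
Mean promoter methylation (percent, each panel with its own axis from 0) against week for the 10 genes; triangles are PyMT samples, circles FVB samples, and bars group means. Hic1 separates the strains at each week, from 16.7% to 23.7% in PyMT and from 7.06% to 10.7% in FVB, whereas the panels of Cdkn2b, Dapk1 and Gstp1 hold values under 1% in both strains.

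Counted by stage, the same test called 1 member higher in hyperplasia, where 2.82% of all promoters were called higher, and 1 in adenoma/MIN, where 8.75% were. It called 2 members higher in early carcinoma (11.6% of all promoters) and 3 in late carcinoma (12.5%). Hic1 was called at all 4 stages, Ccnd2 at both carcinoma stages, Timp3 in late carcinoma, and Mgmt at no single stage. Rassf1 was called lower at each stage, where 5.85%, 8.51%, 10.6% and 9.45% of all promoters were called lower from week 6 to week 12. Without PyMT replicate 1, 2 members were higher in adenoma/MIN, 1 was higher in late carcinoma, and 0 were lower in hyperplasia and in late carcinoma. Without PyMT replicate 2, 0 were lower in hyperplasia. With the replicate block 1 member was higher in late carcinoma, Hic1, and 0 were lower in hyperplasia and in late carcinoma.

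Hic1 carried the largest gain of the 10 genes. The gene lies on the minus strand at chr11:75161377-75170255 within a locus that overlaps Smg6, and it has an upstream TSS at 75170255 and a downstream TSS at 75168152, 2103 bp apart. Its 250 promoter positions averaged 20.3% ± 2.15 (SD, n = 10) in PyMT, with a median sample of 19.97%, and 8.75% ± 1.14 (SD, n = 12) in FVB, with a median sample of 8.67%. The difference was 11.6 points (SE 0.505, limma adjusted p = 2.7e-11), and it ranked 264 of 16407 promoters from the highest. An exact permutation test of the strain labels within weeks gave p = 2.5e-05, the smallest that its 40000 arrangements can give (permutation adjusted p = 0.00020). Rassf1, Ccnd2 and Timp3 reached the same value, and this test called 34.4% of all promoters at adjusted p under 0.05.

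The Hic1 promoter difference was larger at later stages. In hyperplasia the PyMT samples stood at 19.2% and 16.7%, and the controls at 10.7%, 9.68% and 8.42%. In late carcinoma the PyMT samples stood at 23.7% and 21.8%, and the controls at 7.79%, 8.33% and 8.12%. No PyMT sample overlapped the controls at either stage. The difference was 8.36 points in hyperplasia, 9.77 in adenoma/MIN, 13.6 in early carcinoma and 14.7 in late carcinoma (SE 0.952 to 1.06). The late carcinoma difference exceeded the hyperplasia difference by 6.31 points (SE 1.51, limma adjusted p = 0.030), the only such call among the 10 genes, where 2.69% of all promoters were called in this direction. That call was not kept under the replicate block (adjusted p = 0.16), on merged strands, on the logit scale, with pooled reads, with promoters of 1 kb or upstream only, or without PyMT replicate 2, FVB replicate 1, FVB replicate 2 or FVB replicate 3 (adjusted p 0.0821 to 0.229, difference 5.06 to 6.91 points).

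The gain lay at the downstream TSS of Hic1 and not at the upstream one. Within 500 bp of the downstream TSS, 63 positions averaged 42.2% ± 4.02 in PyMT (SD, n = 10) and 12.7% ± 2.73 in FVB (SD, n = 12), a difference of 29.4 points (SE 1.42, limma adjusted p = 9.3e-11). Within 500 bp of the upstream TSS, 18 positions averaged 0.810% and 0.580%, a difference of 0.19 points that was not called (SE 0.247, limma adjusted p = 0.73). The upstream start was thus almost free of methylation in both strains. The difference between these 2 windows was not itself tested.

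The stretch just upstream of the downstream TSS is shown because it holds measured CpGs that were mostly methylated in PyMT and mostly unmethylated in FVB. These are the 300 bases before that TSS, at chr11:75168153-75168452 on the minus strand of mm10 (RefSeq GRCm38.p6), inside an intron of the transcript that starts upstream. Capitals mark the 17 of its 25 CpGs that were measured in all samples on at least 1 strand.
Hic1, upstream of the downstream TSS: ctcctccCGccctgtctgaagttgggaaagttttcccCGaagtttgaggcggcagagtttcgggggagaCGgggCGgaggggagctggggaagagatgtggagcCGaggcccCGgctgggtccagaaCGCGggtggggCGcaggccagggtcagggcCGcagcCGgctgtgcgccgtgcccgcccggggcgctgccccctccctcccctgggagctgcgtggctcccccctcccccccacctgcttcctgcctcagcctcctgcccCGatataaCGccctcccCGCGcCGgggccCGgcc
Its 23 measured positions averaged 59.6% ± 6.24 in PyMT (SD, n = 10, from 49.6% to 68.9%) and 16.7% ± 5.02 in FVB (SD, n = 12, from 9.10% to 23.4%).

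Methylation along Hic1 rose and fell in blocks. From 1500 to 500 bp before the downstream TSS both strains stayed under 0.5%. In the last 500 bp before that TSS PyMT averaged 34.9% and FVB 9.42%, and in the 500 bp after it 59.1% and 20.3%. Between 500 and 1000 bp after the TSS the strains stood at 5.92% and 5.80%. In the coding exon farther on, from 1500 to 2000 bp, PyMT again averaged 45.7% and FVB 23.6%. From 2500 to 3000 bp the order was the other way, with 3.58% in PyMT and 8.91% in FVB, and from 3000 to 3500 bp PyMT stood at 54.4% and FVB at 24.0%. These block values are given without a test.

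**Figure D2:**
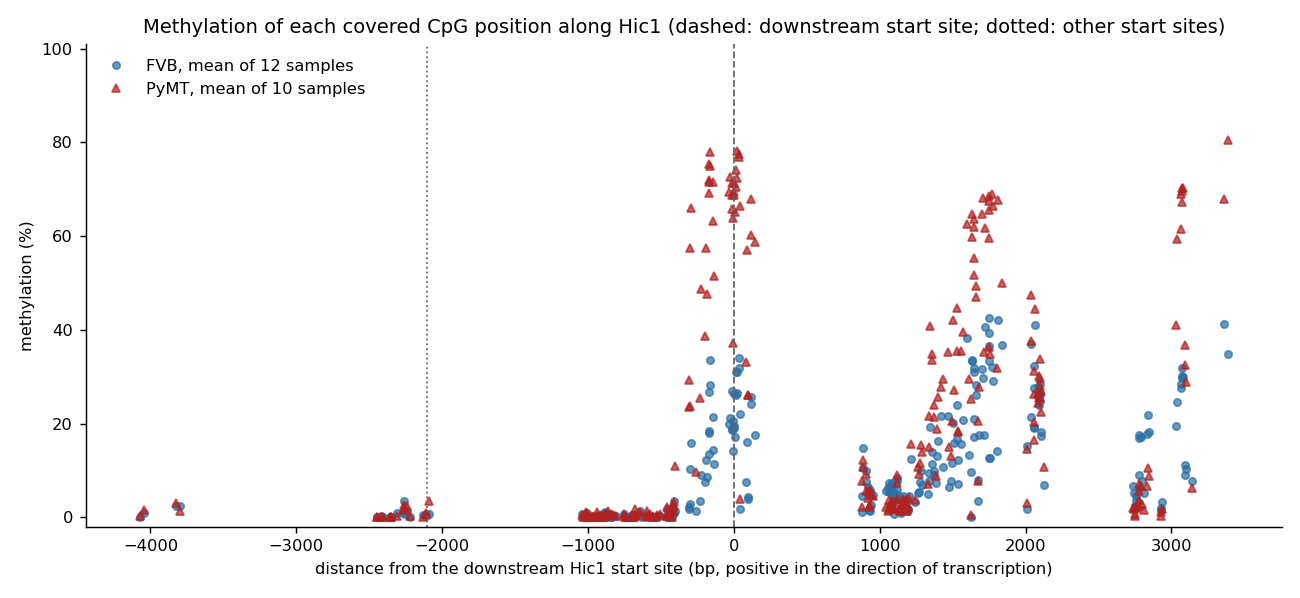
Methylation (percent) of each covered Hic1 position against its distance from the downstream TSS in bp; triangles are means of 10 PyMT samples and circles means of 12 FVB samples, the dashed line is the downstream and the dotted line the upstream TSS. Both strains lie near 0 at the upstream TSS, and the strains part within about 500 bp of the downstream TSS and again from 1500 to 2000 bp after it.

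A run of 26 positions across the downstream TSS, from 33 bp before to 143 bp after it (chr11:75168009-75168185, the 5′ UTR of the shorter transcript and the intron of the longer), gave the largest gain of any Hic1 cluster. A cluster here is a run of at least 3 positions with gaps of at most 100 bp. In PyMT it stood at 56.6% and 53.3% in hyperplasia, at 63.5%, 57.7% and 59.4% in adenoma/MIN, at 68.9%, 63.3% and 53.5% in early carcinoma and at 66.1% and 62.6% in late carcinoma. In FVB it stood at 26.4%, 25.2% and 19.0% at week 6, at 22.1%, 24.1% and 23.1% at week 8, at 14.7%, 13.3% and 20.2% at week 10 and at 14.1%, 20.1% and 20.5% at week 12. All PyMT samples lay above all FVB samples. The average difference was 40.1 points (SE 2.02, limma adjusted p = 2.1e-10, over 84563 clusters). The next Hic1 cluster was a coding-exon run of 107 positions at chr11:75166317-75167273, higher by 9.67 points (SE 0.688). After it came a run of 95 positions before the downstream TSS at chr11:75168288-75169192, in coding exon and intron, higher by 8.59 points (SE 0.445).

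Single positions of Hic1 showed the same layout. At 38 of its 250 promoter positions all 10 PyMT samples lay above all 12 FVB samples, where 0.271% of all promoter positions did so, and at 0 did all lie below, where 0.368% did so. Over the whole gene there were 46 such positions of 303, of which 30 lay between 307 bp before and 143 bp after the downstream TSS, 5 lay from 1500 to 2000 bp after it and 8 over 3000 bp after it. Positions of the same reads are not independent of each other.

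Cdkn2a encodes p16Ink4a and p19Arf from separate promoters, and these data cover only the latter in every sample. The gene spans chr4:89274473-89294619 on the minus strand. The 151 promoter positions all lay within 2 kb of the p19Arf TSS at 89294619, and none lay within 2 kb of the p16Ink4a TSS at 89282192. Promoter methylation ranged from 2.57% to 3.87% in PyMT (median sample 3.07%) and from 2.55% to 4.22% in FVB (median sample 3.46%). The groups overlapped and the difference of -0.27 points was not called (SE 0.171, limma adjusted p = 0.28). Promoter gain was therefore not called for p19Arf and was not measured in all samples for p16Ink4a.

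Near the p16Ink4a TSS, 11 positions were covered in some samples, and their values are given as a description without a test. A group of 7 positions, 158 to 199 bp downstream of that TSS, was covered in 9 of the 10 PyMT and 10 of the 12 FVB samples. At these positions the means ranged from 1.74% to 21.7% in PyMT and from 1% to 10.8% in FVB. The highest PyMT mean, 21.7%, stood beside 10.6% in FVB, and the mean of another position was 15.6% beside 3.83%. The PyMT mean lay above the FVB mean at each of these 7 positions. At the position 188 bp downstream the means were close, 11.3% in PyMT and 10.8% in FVB. Single samples there ranged from 0% to 57.1%. The other 4 positions were covered in 1 sample, at 0%.

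Inside the p19Arf promoter window, a cluster of 5 positions in the intron was lower in PyMT. It lay 1018 to 1095 bp downstream of the TSS, and its sequence is given because it is the called promoter cluster of this gene (chr4:89293514-89293611, minus strand, mm10, with 10 bases on each side, capitals marking the 4 CpGs measured).
Cdkn2a, intron downstream of the p19Arf TSS: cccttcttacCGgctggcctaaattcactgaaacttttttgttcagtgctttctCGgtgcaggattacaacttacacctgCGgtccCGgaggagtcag
Its methylation ranged from 46.9% to 69.7% in PyMT (median 55.3%) and from 52.2% to 78.2% in FVB (median 72.1%). The groups overlapped, and PyMT was lower by 13.5 points on average (difference -13.5, SE 2.86, limma adjusted p = 0.00080). The window of 500 bp around the p19Arf TSS leaves this cluster out. Its 79 positions averaged 1.99% in PyMT and 1.74% in FVB. That difference of 0.27 points was not called (SE 0.140, limma adjusted p = 0.25).

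Cdkn2b encodes p15Ink4b, the cell cycle inhibitor next to Cdkn2a, at chr4:89306289-89311032 on the minus strand. All of its 47 promoter positions lay 13 to 392 bp downstream of the TSS at 89311032. They ranged from 0.0302% to 0.497% in PyMT and from 0.129% to 0.485% in FVB, with medians of 0.253% and 0.246%. The difference was -0.010 points (SE 0.0551, limma adjusted p = 0.93), and promoter gain was not called.

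Ccnd2, which encodes cyclin D2, lies at chr6:127125162-127152188 on the minus strand and shares its promoter region with the non-coding gene 9330179D12Rik. Its 21 promoter positions ranged from 0.703% to 2.02% in PyMT (median 1.20%) and from 0.0411% to 0.973% in FVB (median 0.430%). Of the 10 PyMT samples, 7 lay above all FVB samples. The difference was 0.855 points (SE 0.136, limma adjusted p = 6.4e-05), with 1.20 points in early carcinoma (adjusted p = 0.0020) and 0.986 points in late carcinoma (adjusted p = 0.019). The late carcinoma call was lost with the replicate block (1.04 points, limma adjusted p = 0.071), without PyMT replicate 1 (0.512 points, limma adjusted p = 0.43) and without FVB replicate 1 (0.826 points, limma adjusted p = 0.11). Promoter gain was called, on a scale of about 1 point. The 3 positions within 500 bp of the TSS at 127151048 were not called (difference -0.089, SE 0.522, limma adjusted p = 0.95). Of the called clusters, those at 690 to 778 bp and at 958 to 1135 bp downstream of the TSS, in an intron, were higher by 0.823 and 1.05 points.

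Rassf1 has 2 start sites on the plus strand, at 107551555 and at 107554583, within the gene at chr9:107551434-107562267. The longer form, known in human as RASSF1A, starts at a CpG island that is often methylated in breast tumors. The 52 promoter positions ranged from 0.339% to 1.11% in PyMT (median 0.696%) and from 1.504% to 2.31% in FVB (median 1.84%), and all PyMT samples lay below all FVB samples. The difference was -1.16 points (SE 0.111, limma adjusted p = 1.9e-07).

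That lower value rested on 1 cytosine at the edge of the promoter window. The position at chr9:107549555, 2000 bp upstream of the first TSS, averaged 29.6% ± 12.5 in PyMT (SD, n = 10, from 15.1% to 52.3%) and 86.3% ± 9.94 in FVB (SD, n = 12, from 67.6% to 97.4%). It was covered by 20 to 73 reads. Without it the other 51 positions averaged 0.127% ± 0.0625 and 0.223% ± 0.176, a difference of -0.10 points. With promoters of 1 kb on each side, which leave this position out, Rassf1 was not called (limma adjusted p = 0.30). The windows of 500 bp around both TSSs were not called either, with differences of -0.28 points (12 positions, SE 0.148, limma adjusted p = 0.27) and -0.068 points (27 positions, SE 0.0713, limma adjusted p = 0.65). Promoter gain was not called at either start site.

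Brca1, a homologous recombination gene, lies at chr11:101488761-101551955 on the minus strand and shares its promoter region with Nbr1. It had 4 promoter positions covered in all samples, 220 to 358 bp downstream of the TSS at 101551955. They ranged from 0% to 2.14% in PyMT and from 0% to 1.35% in FVB, with a median sample of 0% in both. The 7 PyMT and 9 FVB samples at 0% held 155 to 363 reads over these positions, and 3 methylated reads of such totals, the limit that a count of 0 allows, would be 0.826% to 1.94% (counting error only). The difference was 0.13 points (SE 0.217, limma adjusted p = 0.74). In adenoma/MIN it was 0.943 points and was not called (SE 0.410, limma adjusted p = 0.14). At that stage 2 of 3 PyMT samples lay above all FVB samples of the week. Without PyMT replicate 1 the adenoma/MIN difference was 1.41 points. Promoter gain was not called with all samples included, on fewer positions than for any other member.

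Mgmt, which encodes the enzyme that removes alkyl groups from guanine, lies at chr7:136894463-137128193 on the plus strand. Its 9 promoter positions ranged from 30.1% to 35.0% in PyMT (median 31.5%) and from 26.5% to 33.6% in FVB (median 29.7%). The groups overlapped. The difference was 2.46 points (SE 0.852, limma adjusted p = 0.032), so a gain was called, but not without PyMT replicate 1, PyMT replicate 3, FVB replicate 1 or FVB replicate 2 (difference 1.89 to 2.45 points, adjusted p 0.0917 to 0.191), nor with the replicate block (2.15 points, adjusted p = 0.13).

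The called Mgmt promoter gain lay in the intron and not at the TSS. The 6 positions within 500 bp of the TSS at 136894586 averaged 2.26% in PyMT and 2.67% in FVB, a difference of -0.31 points (SE 0.732, limma adjusted p = 0.87). The other 3 positions, 1484 to 1600 bp downstream, averaged 91.2% ± 2.96 (SD, n = 10) and 83.1% ± 3.58 (SD, n = 12), a difference of 8.01 points (SE 1.40, limma adjusted p = 0.00013). With promoters of 1 kb on each side the Mgmt difference turned to -0.31 points (adjusted p = 0.84). The other Mgmt TSS, at 136913098, had no covered position within 2 kb.

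Dapk1, which encodes a calcium-regulated kinase that promotes cell death, lies at chr13:60601723-60763191 on the plus strand. Its 85 promoter positions, around start sites at 60601947 and 60602211, ranged from 0.0447% to 0.486% in PyMT (median 0.141%) and from 0.0751% to 0.569% in FVB (median 0.222%). The difference was -0.048 points (SE 0.0584, limma adjusted p = 0.62), and promoter gain was not called.

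Timp3, an inhibitor of metalloproteinases bound to the extracellular matrix, starts at chr10:86300412 on the plus strand and ends at 86349505, overlapping Syn3. Its 27 promoter positions ranged from 10.7% to 13.3% in PyMT (median 11.5%) and from 8.90% to 11.1% in FVB (median 9.96%), and 7 of 10 PyMT samples lay above all FVB samples. The difference was 1.87 points (SE 0.335, limma adjusted p = 0.00020), and it was 3.03 points in late carcinoma (SE 0.706, limma adjusted p = 0.0041). The late carcinoma call was lost with the replicate block (2.68 points, limma adjusted p = 0.068) and without PyMT replicate 1 (2.39 points, limma adjusted p = 0.078). Promoter gain was called. The level of the promoter mean came mostly from 3 positions farther upstream, at chr10:86298615-86298739. They averaged 88.4% in PyMT and 85.7% in FVB and were not called (difference 2.96 points, SE 2.27, limma adjusted p = 0.32). The 24 positions within 500 bp of the TSS averaged 2.11% in PyMT and 0.414% in FVB.

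The Timp3 gain sat just before the TSS. The 9 positions from 99 to 24 bp upstream are shown as the stretch that gained methylation next to the start (chr10:86300303-86300398, plus strand, mm10, with 10 bases on each side, capitals marking the 7 of 9 CpGs measured).
Timp3, upstream of the TSS: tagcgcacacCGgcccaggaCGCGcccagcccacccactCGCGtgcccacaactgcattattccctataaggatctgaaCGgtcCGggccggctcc
They ranged from 1.58% to 8.19% in PyMT (median 3.54%) and from 0% to 1.21% in FVB (median 0.615%), so the groups did not overlap. In late carcinoma the PyMT samples stood at 7.25% and 8.19%. The average difference was 4.18 points (SE 0.645, limma adjusted p = 3.7e-05). Most reads over these CpGs remained unmethylated in the PyMT samples.

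Gstp1, a glutathione transferase, lies at chr19:4035411-4037912 on the minus strand. Its 21 promoter positions, from 62 bp before to 208 bp after the TSS at 4037912, ranged from 0% to 0.904% in PyMT (median 0.135%) and from 0% to 0.948% in FVB (median 0.258%). The difference was -0.060 points (SE 0.109, limma adjusted p = 0.75), and promoter gain was not called. The 2 PyMT and 2 FVB samples at 0% allow a methylated share of up to 0.236% to 0.392% at their depth. The mouse genome holds a close copy, Gstp2, whose 4 promoter positions averaged 70.0% in PyMT and 75.5% in FVB. Whether reads of the pair were exchanged or dropped in the alignment was not tested.

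Windows of 500 bp on each side of the TSS gave a narrower view. Of the 15 start sites of the 10 genes, 13 had enough positions, and 2 of these windows were called higher in PyMT, where 12.8% of all such windows were. They were the downstream TSS of Hic1 and the TSS of Timp3 (difference 1.74 points, SE 0.259, limma adjusted p = 4.7e-05). None was called lower, where 6.25% of all windows were, and 2 start sites, those of p16Ink4a and the second of Mgmt, had no position in all samples.

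Gene bodies, taken as the positions of a gene outside its own promoters, were tested in the same way. Of the 8 genes with enough positions, 2 were higher in PyMT, where 19.7% of all gene bodies were called higher, and 4 were lower, where 46.3% were called lower, so both counts were near the shares of all gene bodies. Timp3 rose by 18.5 points (SE 1.97, limma adjusted p = 2.8e-07) and Hic1 by 7.26 points (SE 1.15, limma adjusted p = 2.7e-05). Lower values were found in Cdkn2b (-9.73 points), Brca1 (-8.12), Ccnd2 (-7.84) and Mgmt (-6.14). All PyMT samples lay below all FVB samples in the body of Mgmt, as in 19.4% of all gene bodies, and no member lay wholly above, as 4.80% did. Mgmt stood at 76.9% ± 1.82 (SD, n = 10) against 82.8% ± 0.842 (SD, n = 12). Ccnd2 was called higher in its promoter and lower in its body, a difference that was not itself tested. Cdkn2a and Dapk1 were not called (0.23 and 0.13 points), and Rassf1 and Gstp1 had no body position.

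By stage, the bodies of Hic1 and Timp3 were called higher at each week, 2 members where 6.69%, 10.5%, 13.1% and 13.2% of all gene bodies were called higher from week 6 to week 12. In hyperplasia the Hic1 body averaged 26.7% ± 9.11 in PyMT (SD, n = 2) and 18.7% ± 2.55 in FVB (SD, n = 3). Only 1 of these PyMT samples lay above all FVB samples of that week. Lower bodies numbered 1 in hyperplasia, where 24.1% of all were called lower, and this was Mgmt (-5.78 points). They numbered 2 in adenoma/MIN (31.0% of all), Mgmt and Brca1, and 4 in early carcinoma (35.0% of all) and in late carcinoma (34.8% of all), when Cdkn2b and Ccnd2 were called as well. In late carcinoma the differences were -12.7 points for Ccnd2, -10.7 for Cdkn2b, -10.3 for Brca1 and -8.71 for Mgmt. No change of a gene body between hyperplasia and late carcinoma was called in these genes, with adjusted p from 0.355 to 0.947.

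**Figure D3:**
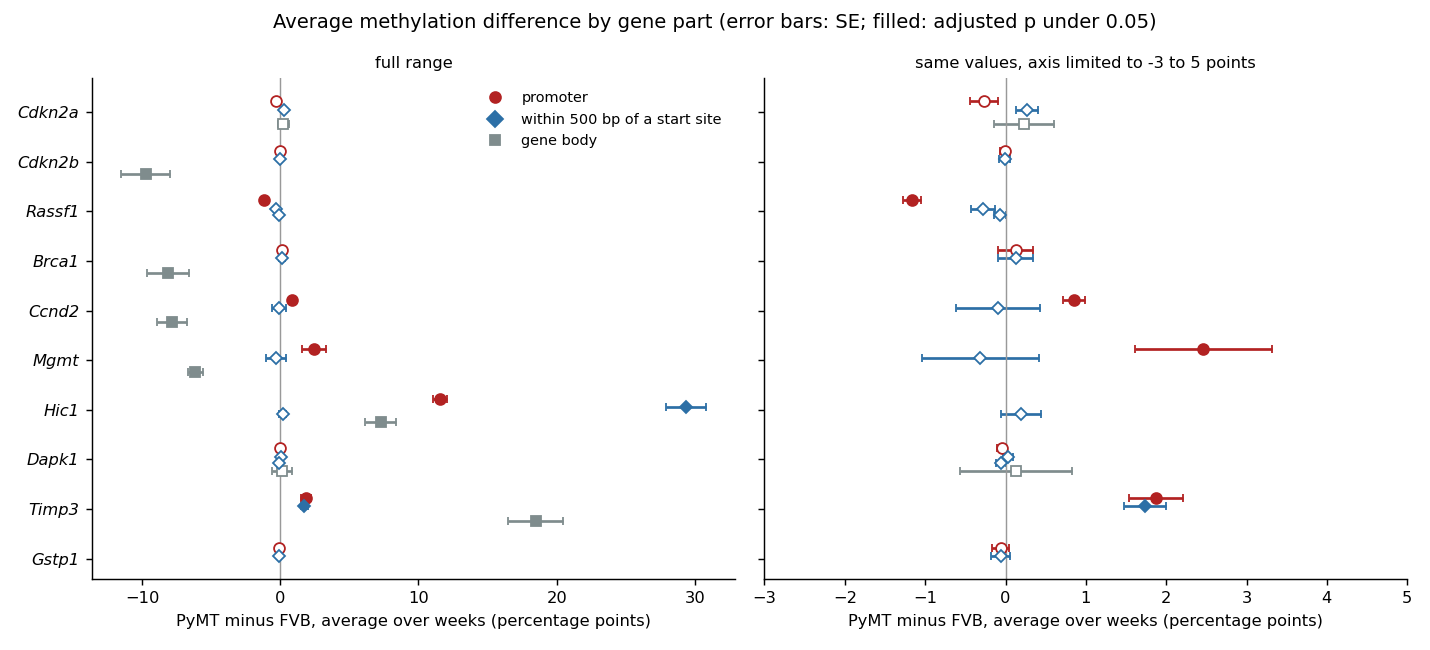
Average PyMT minus FVB difference over the 4 weeks in percentage points (x axis, full range at the left and -3 to 5 points at the right) for the promoter, the windows of 500 bp around each start site and the gene body of each gene; error bars are SE and filled symbols had an adjusted p under 0.05. The downstream start of Hic1 stands at 29.4 points, whereas the body values of Cdkn2b, Brca1, Ccnd2 and Mgmt lie from -6.14 to -9.73 points.

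The 10 genes held 54 CpG clusters, of which 15 were higher in PyMT, where 16.6% of all 84563 clusters were called higher, and 12 were lower, where 31.6% were. Of the 25 clusters in promoters, 7 were called higher and 1 lower. Of the 28 outside promoters, 8 were called higher and 11 lower. The shares of all clusters were not split by location. These counts by location therefore have no matching background and are not read as a trait of the 10 genes. Non-overlap of all samples was found in 6 clusters above, as in 3.49% of all clusters, and in 3 below, as in 9.25%. Rassf1 and Gstp1 had no called cluster.

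The largest cluster difference in any member lay in an intron of Mgmt and was a loss. It spans 5 positions at chr7:137029612-137029685 and is printed with 10 bases on each side, plus strand, capitals marking its 4 CpGs.
Mgmt, intron: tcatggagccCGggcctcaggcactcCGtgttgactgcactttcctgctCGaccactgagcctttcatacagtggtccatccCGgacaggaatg
PyMT samples ranged from 27.1% to 42.2% (median 37.5%) and FVB samples from 75.8% to 92.3% (median 86.2%), with no overlap. The difference was -49.9 points (SE 2.15, limma adjusted p = 6.7e-11). In hyperplasia the PyMT samples already stood at 36.4% and 42.2%, beside 80.8%, 81.1% and 87.3% in the controls. Other Mgmt intron clusters went both ways, with -20.0 points at chr7:137001890-137001967 and 9.09 points at chr7:136952678-136952799.

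Dapk1 had an almost unmethylated promoter, a body mean that was not called, and called clusters of both directions within the gene. The largest, in an intron at chr13:60617868-60617953, is printed with 10 bases on each side, plus strand, capitals marking its 3 CpGs.
Dapk1, intron: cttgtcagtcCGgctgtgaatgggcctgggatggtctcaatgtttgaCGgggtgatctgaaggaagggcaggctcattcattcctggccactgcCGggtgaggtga
Its 4 positions ranged from 62.3% to 78.6% in PyMT (median 71.3%) and from 33.2% to 54.7% in FVB (median 45.3%), with no overlap. The difference was 26.5 points (SE 2.54, limma adjusted p = 2.0e-07). A second intron cluster, at chr13:60687061-60687196, was lower in PyMT by 19.9 points (difference -19.9, SE 2.56), from 8.31% to 17.1% against 18.0% to 43.3% in FVB. Another, at chr13:60688977-60689075, was higher by 10.99 points (SE 1.46).

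The body gain of Timp3 came from 6 positions in an intron at chr10:86341781-86341828, covered by 32.0 reads on average. PyMT samples ranged from 33.8% to 58.9% and FVB samples from 19.6% to 44.6%, and 9 of 10 PyMT samples lay above all FVB samples. Ccnd2 had body losses of 16.2 points in an intron (chr6:127147195-127147250, difference -16.2) and 13.4 points in a coding exon (chr6:127130403-127130423, difference -13.4). The loss in Cdkn2b came from 6 positions in a coding exon (chr4:89307124-89307170), where PyMT samples ranged from 0% to 13.3% and FVB samples from 4.85% to 26.9%. In Brca1 an intron cluster at chr11:101494507-101494584 was lower by 6.46 points (difference -6.46, SE 2.04, limma adjusted p = 0.014), a call lost without PyMT replicate 1, PyMT replicate 2 or FVB replicate 3 (-4.55 to -6.20 points, adjusted p 0.0503 to 0.122).

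**Figure D4:**
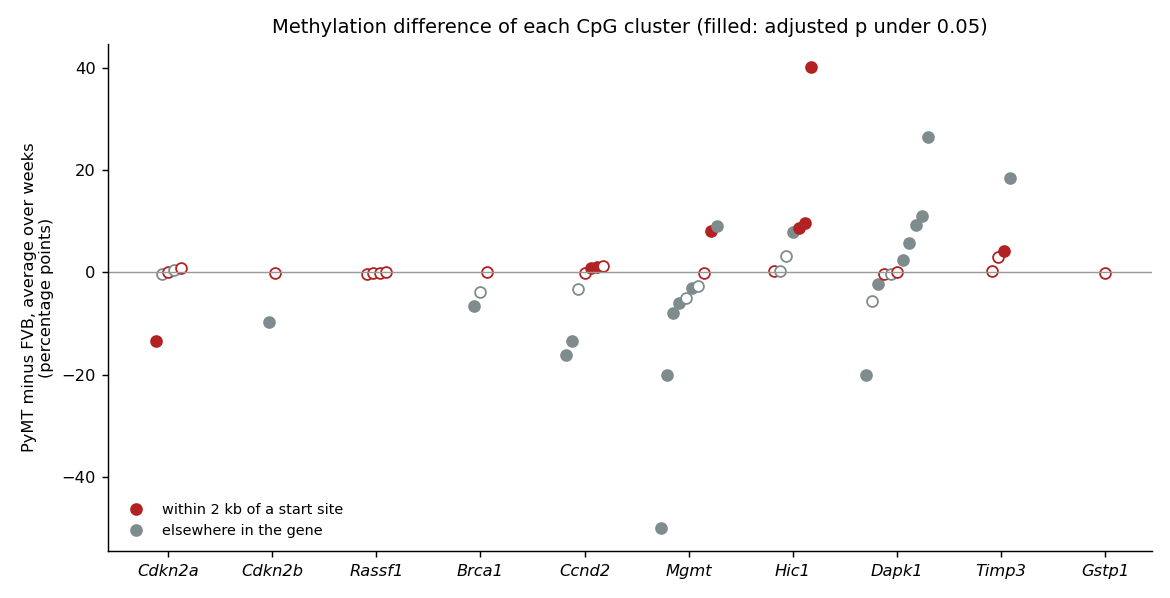
PyMT minus FVB difference of each CpG cluster (percentage points, average over 4 weeks) by gene; red clusters lie within 2 kb of a start site, grey ones elsewhere in the gene, and filled symbols had an adjusted p under 0.05. The Hic1 cluster at 40.1 points and the Mgmt intron cluster at -49.9 points stand farthest from 0, and Dapk1 has filled symbols on both sides.

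**Figure D5:**
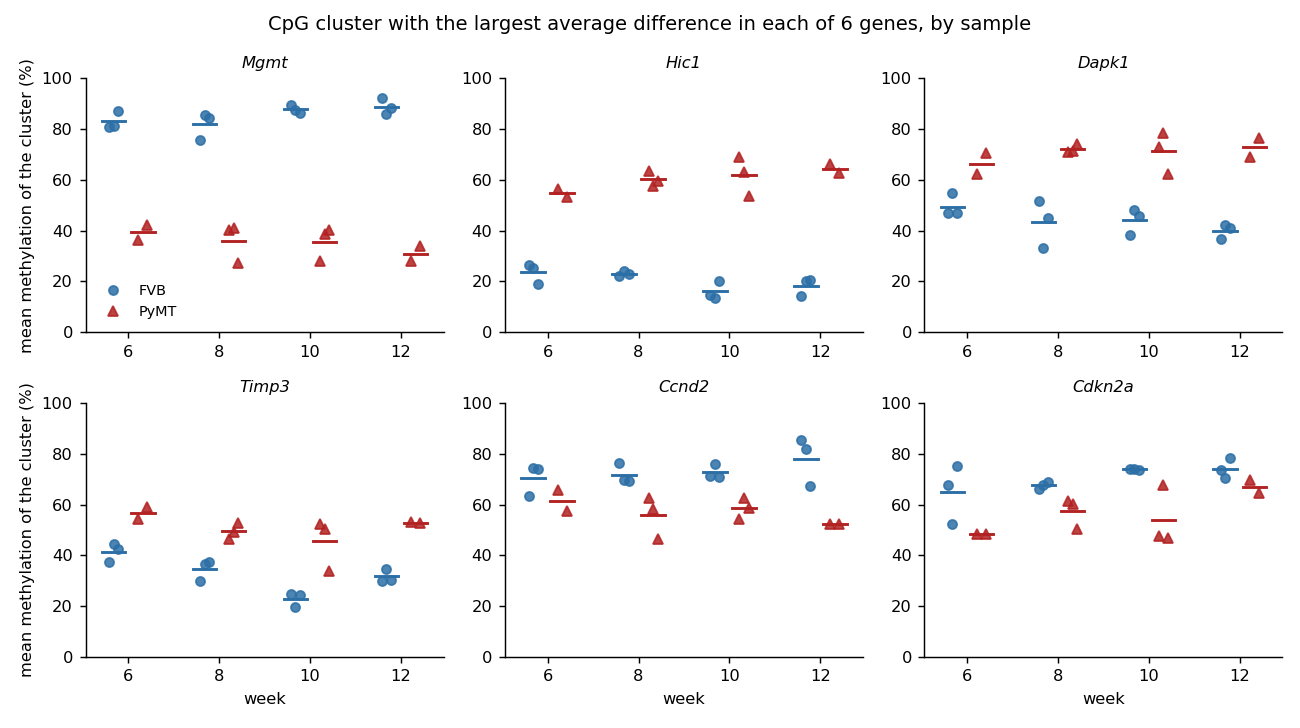
Mean methylation (percent) by week and sample of the cluster with the largest average difference in each of 6 genes; triangles are PyMT samples, circles FVB samples, and bars group means. The strains do not overlap in Mgmt, Hic1 and Dapk1, while in Cdkn2a the PyMT range of 46.9% to 69.7% overlaps the FVB range of 52.2% to 78.2%.

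Reads at single positions were also compared by the logistic test of the methylKit approach, and a differentially methylated cytosine (DMC) had to reach a q-value under 0.01 together with at least 10 points between the strains. This test takes reads and not mice as its units. Of the 250 Hic1 promoter positions, 59 (23.6%) were hyper-DMCs in hyperplasia, where 0.887% of all promoter positions were. The number was 71 (28.4%) in adenoma/MIN against 1.15% of all, 88 (35.2%) in early carcinoma against 1.91%, and 98 (39.2%) in late carcinoma against 2.29%. Over all 10 genes there were 61, 73, 89 and 102 hyper-DMCs at these stages, so few lay outside Hic1. With a correction for overdispersion between mice the hyper-DMCs of the 10 genes numbered 33, 44, 67 and 72. Shares of all promoter positions were not computed under this correction, so its counts have no matching background. Without the correction, Cdkn2a had 1, 1, 1 and 2 hyper-DMCs, Mgmt had 1 in each of the premalignant stages, and Timp3 had 2 in late carcinoma. Hypo-DMCs numbered 6, 4, 7 and 3, where 1.13%, 1.37%, 1.46% and 1.34% of all promoter positions were hypo-DMCs, and with that correction they numbered 2, 2, 2 and 1. At each stage 1 of the uncorrected hypo-DMCs was the Rassf1 position 2000 bp upstream. Of the others, Cdkn2a had 3, 1, 6 and 1, Hic1 had 2 in each of the premalignant stages, and Mgmt had 1 in late carcinoma. The uncorrected hypo-DMCs numbered 3 in hyperplasia without PyMT replicate 1, 2 in hyperplasia without PyMT replicate 2 and 1 in late carcinoma without FVB replicate 3. Cdkn2b, Brca1, Ccnd2, Dapk1 and Gstp1 had no promoter DMC at any stage.

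Promoter read depth did not separate the strains. The mean coverage of a promoter relative to its sample was not called in any member or in any of the 16407 promoters (limma, 0% called in either direction).

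The genes around these tumor suppressors were read from lists of pathway partners. Of 18 tested among other genes known for methylation in human breast cancer, 8 promoters were higher in PyMT and 2 lower, with a median difference of 0.12 points. Among them Dkk3, a secreted Wnt modulator, was higher by 21.8 points (SE 0.861, limma adjusted p = 1.2e-11), from 19.8% to 40.2% in PyMT and from 3.77% to 6.80% in FVB. Cdkn1c, a cell cycle inhibitor, was higher by 4.90 points, and Cdh13, a cadherin, by 3.17 points.

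The other lists held partners of single members. In Rb and p53 cell cycle control 2 of 18 were higher and 3 lower, with Ccnd3 at 7.84 points, Cdk4 at -3.18 and Rbl1 at -1.35. In homologous recombination and mismatch repair 1 of 14 was higher (Msh6, 1.05 points) and 1 lower (Rad51d, -3.74 points). Of 12 Rassf family and Hippo kinase genes, 3 were higher and 2 lower, with Rassf8 at 1.09 points, Rassf2 at 1.003 and Rassf7 at -0.53. Of 8 metalloproteinases and their inhibitors, 2 were higher, Mmp2 at 6.57 points and Mmp24 at 0.317. None of 8 death kinases and receptors or of 6 glutathione transferases and detoxification genes was called, and of 5 Hic1 partners Bcl6 was lower by 0.30 points (difference -0.30). The shares of all promoters called, 17.0% in each direction, apply to these counts as well.

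Promoters of genes that mark cell types also differed between the strains, and 17.0% of all promoters called in each direction is the background of their counts too. All 12 epithelial marker promoters were lower in PyMT, and their mean ranged from 3.75% to 6.61% in PyMT samples and from 13.3% to 18.7% in FVB samples. Of 7 adipocyte markers 2 were higher and 2 lower (list mean 27.1% to 32.0% against 32.2% to 36.4%), and of 4 leukocyte markers 2 were higher and 1 lower (30.5% to 40.9% against 33.8% to 37.6%). Of 6 endothelial markers 3 were higher and 2 lower (37.8% to 41.5% against 29.7% to 35.3%), of 5 fibroblast markers 3 were higher (4.21% to 7.92% against 2.80% to 5.75%), and of 4 myoepithelial markers 1 was higher and 2 lower (27.7% to 34.9% against 24.1% to 31.6%). The epithelial, adipocyte and endothelial list means did not overlap between the strains, whereas the leukocyte, fibroblast and myoepithelial list means did. The largest clusters of Hic1, Mgmt and Dapk1 did not overlap either. The part of cell types in the Hic1, Mgmt and Dapk1 results was not tested.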

How the data were processed

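The authors aligned ERRBS reads to mm10 with Bismark and deposited, per sample, every CpG cytosine with at least 10 reads, strands apart: the count of reads (coverage), not normalized, and the percent of these reads methylated and unmethylated. According to the study's methods, 2 outlier samples had been removed. Groups, weeks and replicate numbers came from the labels. Methylated and unmethylated counts were recovered as coverage times percent, rounded, and all 1625271 positions fell on a reference CpG.

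Positions covered in all 22 samples were averaged, unweighted, over promoters (2 kb on each side of curated RefSeq TSSs), windows of 500 bp, gene bodies and clusters (gaps of at most 100 bp), each with at least 3 positions. The means were fitted with limma (version 3.58.1, R 4.3.3; 8 group means, eBayes with trend, 14 residual degrees of freedom, Benjamini-Hochberg over all units of a kind, called at adjusted p under 0.05). Groups of 2 borrow the spread of the other groups. Single positions were tested by logistic regression on reads within each week. The 20 replicate pairs of the same group differed by more than sampling noise (mean chi-square per position 1.83 to 3.51), so each sample counted as a replicate. Tests were tried on simulated data. The members and lists were chosen with earlier results of these data known. Of each list the 3 called genes with the largest differences, and of each member up to 3 called clusters, are named; the Ccnd2 cluster at 690 to 778 bp and the Mgmt cluster at 1484 to 1600 bp were named after their values were seen. Other settings tried were 20 reads as the coverage minimum, both strands summed, a logit scale, pooled reads, other windows and gaps, the replicate block, an exact permutation test, and leaving out each replicate. Python 3.11.15, NumPy 2.4.6, SciPy 1.17.1 and pandas 2.3.3 were used.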

Additional observations from a re-analysis of the deposited data

Results flagged for a closer look

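The PyMT minus FVB difference of the Hic1 promoter differed between stages: it was 6.31 points larger in late carcinoma than in hyperplasia (SE 1.51, limma adjusted p = 0.030 over 16407 promoters). All PyMT samples lay above the controls of their week at both stages. The call was lost with the replicate block (7.02 points, limma adjusted p = 0.16), on merged strands, on the logit scale, with pooled reads, with promoters of 1 kb or upstream only, and in 4 of 6 runs without a replicate (5.06 to 6.91 points). Each stage holds 2 PyMT samples, and the reason for the difference was not tested.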

How the results depend on the processing

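With the replicate block, 3 promoters of the 10 genes were called higher and 1 lower. A control without a PyMT sample of its number and week has no weight there. The block fit spends a term on each replicate number of each week. It therefore leaves fewer residual degrees of freedom than the main fit. The numbers did not pair the samples (same-number correlations from -0.076 to 0.060 over 10 pairs). Under the block the late carcinoma difference of Hic1 over hyperplasia was 7.02 points and not called, so that count was 0, as it was on merged strands, on the logit scale, with pooled reads, with promoters of 1 kb, with upstream windows only and in 4 of 6 runs without a replicate (0 to 1). Members lower numbered 0, against 1, in the average and at all 4 stages on merged strands and with promoters of 1 kb, both of which leave out the Rassf1 cytosine by construction. They also numbered 0 with pooled reads (hyperplasia, adenoma/MIN, late carcinoma) and with the block (hyperplasia, late carcinoma), and 0 to 1 without a replicate in hyperplasia and in late carcinoma. Members higher numbered 2 with pooled reads in hyperplasia and with promoters of 1 kb in adenoma/MIN, 2 (average) and 1 (early carcinoma) with upstream windows only, and 1 with the block in late carcinoma; without a replicate they numbered 1 to 2 in adenoma/MIN and 1 to 3 in late carcinoma. At 20 reads 1 gene body was higher. Hyper-DMCs numbered 33 in hyperplasia and 44 in adenoma/MIN with overdispersion, and 44 in adenoma/MIN at 25 points. Hypo-DMCs from week 6 to week 12 numbered 2, 1, 1 and 1 at 25 points and 2, 2, 2 and 1 with overdispersion, 2 in adenoma/MIN on merged strands, and 2 to 7 (hyperplasia) and 1 to 4 (late carcinoma) without a replicate.

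Small differences that were not called changed sign. For promoters these were Gstp1 (0.127 at 20 reads, 0.0442 pooled), Cdkn2a (0.158 at 1 kb, 0.0745 upstream only), Dapk1 (0.0254 upstream only) and Cdkn2b (-0.0413 to 0.0374 without a replicate). The called Mgmt promoter turned to -0.312 at 1 kb and upstream only, which both leave out its intron positions. Within 500 bp of a TSS these were Gstp1 (0.127) and the upstream Hic1 start (-0.324) at 20 reads, Ccnd2 at 0.0502 without FVB week 8 replicate 2, and, without a replicate, Ccnd2 (-0.434 to 0.603), Cdkn2b (-0.0413 to 0.0374), Mgmt (-0.966 to 0.510) and the upstream start of Dapk1 (-0.0244 to 0.0910). Gene bodies without a replicate were Cdkn2a (-0.0966 to 0.667) and Dapk1 (-0.0479 to 0.271). Leaving out FVB week 8 replicate 2, the sample farthest from its strain (5.95 points; others 3.60 to 5.54), was chosen after seeing the data. Other causes were not tested. A mouse left alone in its group was assumed to vary like the others. Groups of 2 mice and values near 0% limit what could be called.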
